A study of Mus musculus with 6 samples.

Results

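Basement membrane genes were read in mouse embryonic stem (ES) cells that make FLAG-tagged CTCFL. The set has 10 genes, chosen by symbol: the nidogens Nid1 and Nid2, the laminin chains Lama1, Lamb1 and Lamc1, the type IV collagen chains Col4a1 and Col4a2, the matricellular protein gene Sparc, and the heparan sulfate proteoglycan genes Hspg2 and Agrn. The genes were picked with earlier results of these data known, so their counts are described and not tested as a set. All 10 were measured, each by 1 probe set that carries its symbol alone, out of 19937 genes tested. The FLAG-CTCFL group holds 3 cultures stably transfected with a vector for FLAG-tagged mouse CTCFL, and the control vector group holds 3 cultures stably transfected with the control construct. Every culture came from cells cloned from 46C, a male ES line of the 129P2/OlaHsd background with GFP knocked into Sox1, and both groups grew in 10% serum under 1 µg/ml puromycin. CTCFL (BORIS) is a paralog of the chromatin insulator protein CTCF that is normally made in male germ cells. The design text calls the cultures biological replicates, but the labels do not say how many independent clones each group holds, so p-values measure the spread between these arrays only.

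A basement membrane is a thin sheet of extracellular matrix that underlies epithelia and wraps the early epiblast. It is built from a laminin network, which assembles first on the cell surface, and a covalently crosslinked type IV collagen network, with nidogens and heparan sulfate proteoglycans binding to both. Primitive endoderm and its parietal derivative are known as major producers of these proteins in the early mouse embryo, and ES cells also make laminin.

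Total RNA was hybridised to 1-colour Affymetrix Mouse Gene 1.0 ST arrays, and the values are log2 signals. Array medians lay between 7.92 and 7.99. FLAG-CTCFL replicate 2 had the narrowest spread of values, with an SD of 1.41 against up to 1.47 on the other arrays, and it was the lowest FLAG-CTCFL array for 7 of the 10 basement membrane genes. Ctcfl checked the labels, at 11.33, 11.22 and 11.24 on the FLAG-CTCFL arrays and 7.70, 7.85 and 7.89 on the control vector arrays. As a mark for dim signal, 95% of the 1194 olfactory and vomeronasal receptor genes averaged at or below 7.63. Both group means of every basement membrane gene lay above that value. Those of Col4a2 came nearest to it, at 8.04 in FLAG-CTCFL cells and 7.98 in control vector cells, close to the array medians.

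The set did not move as a block. Nid1 fell 2.76-fold, Lamb1, Sparc and Lama1 fell by less, Agrn and Hspg2 rose, and Nid2, Lamc1, Col4a1 and Col4a2 did not pass the test. In counts, 4 of 10 genes were lower and 2 of 10 higher in FLAG-CTCFL cells, at an adjusted p under 0.05 in limma with Benjamini-Hochberg adjustment over all genes. Of all genes tested, 18.4% were lower and 12.5% higher, 30.9% in either direction. Bright genes were called more often. In the fit of the 9968 genes above the 50th percentile of mean signal, 3170 were lower and 1960 higher. All members but Col4a2 were in that fit, with the same 4 lower and 2 higher. For 6 of the 10 genes the FLAG-CTCFL arrays did not overlap the control vector arrays, and 41.3% of all genes were of that kind. The median log2 fold change was 0.03 over the 10 genes and 0.0037 over all genes. Only Nid1 among the members passed the test with a change of at least 1.5-fold, while 2.77% of all genes fell and 0.787% rose that far. With array medians subtracted, and without control vector replicate 1, control vector replicate 3 or FLAG-CTCFL replicate 3, 1 gene in place of 2 was higher, because Hspg2 lost its call, as given with that gene. Between replicates the 10 genes had SDs of 0.03 to 0.22 in FLAG-CTCFL cells and 0.03 to 0.13 in control vector cells.

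**Figure D1:**
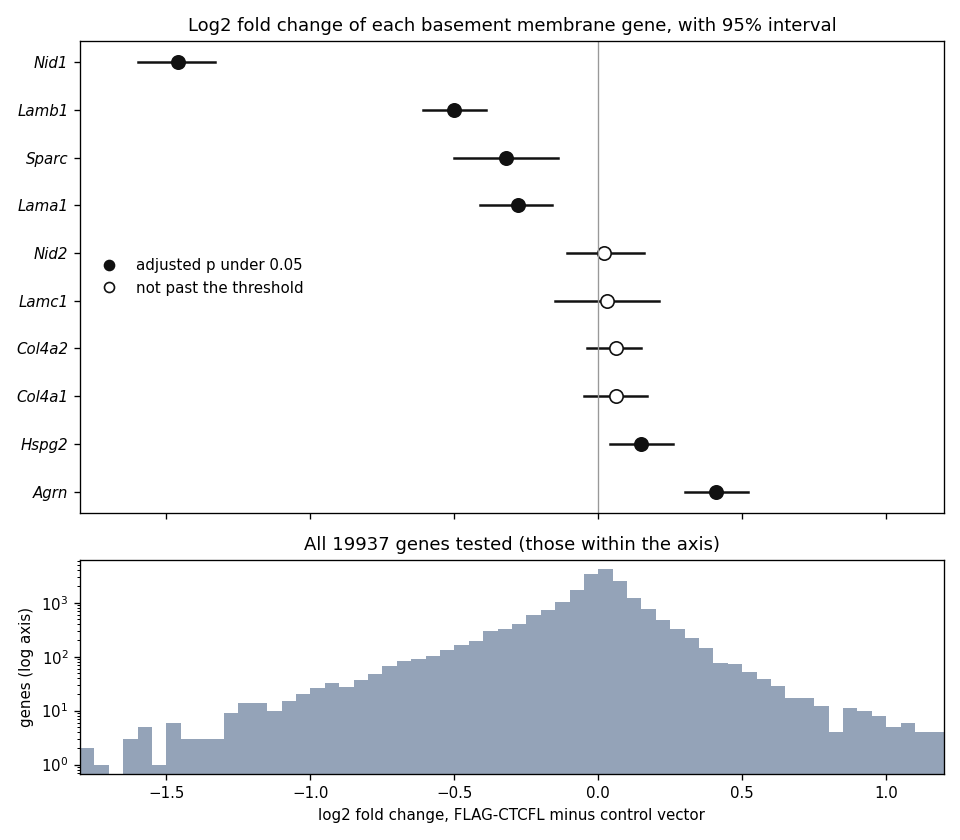
Log2 fold change (FLAG-CTCFL minus control vector) of each basement membrane gene with its 95% interval from limma, filled where the adjusted p is under 0.05, above a histogram of the fold changes of all 19937 genes tested (log count axis). Nid1 stands at -1.46, far from the other members, which lie between -0.50 and 0.41.

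Nidogens are sulfated glycoproteins that bind the laminin γ1 chain and type IV collagen and so link both networks. Nid1 (chromosome 13) had log2 signals of 9.63, 9.49 and 9.54 in FLAG-CTCFL cells, against 10.96, 11.17 and 10.93 in control vector cells. The lowest control vector array was thus well above the highest FLAG-CTCFL array. Nid1 fell by 1.46 ± 0.06 on the log2 scale (SE, n = 3 per group; limma 95% interval -1.60 to -1.33, adjusted p = 2.49e-09). Counting Nid1, 27 genes of the 19937 had a log2 fold change this low or lower. Nid2 (chromosome 14), whose product has the same domain order and overlapping binding partners, had 11.48, 11.20 and 11.31 in FLAG-CTCFL cells and 11.30, 11.37 and 11.26 in control vector cells. These groups overlapped, with a log2 fold change of 0.02 ± 0.06 (SE; 95% interval -0.11 to 0.16, limma adjusted p = 0.851). The fold changes of the nidogens were compared directly, from the per-array difference of their log2 values. The change of Nid1 was lower than that of Nid2 by -1.49 ± 0.06 on the log2 scale (SE, n = 3 per group; 95% interval -1.65 to -1.32). In an exact two-sided permutation test over the arrays this gave p = 0.1, the smallest p that 3 arrays against 3 allow, and 0.125 after adjustment over the 5 pairs of genes compared in this way.

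The Nid1 promoter window, from 250 bases before to 50 bases after the annotated start, is shown because this gene had the largest change (RefSeq, GRCm38.p6, chr13:13437352-13437651, + strand, 5′ to 3′, with a CCAAT box and a GC box in capitals).
Nid1: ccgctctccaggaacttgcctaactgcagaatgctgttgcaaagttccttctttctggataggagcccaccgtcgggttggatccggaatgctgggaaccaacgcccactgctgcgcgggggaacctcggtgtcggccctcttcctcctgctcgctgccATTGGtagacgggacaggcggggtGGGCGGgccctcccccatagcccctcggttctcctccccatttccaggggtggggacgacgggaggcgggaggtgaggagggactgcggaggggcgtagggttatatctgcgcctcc
Motifs were searched on either strand. The CCAAT box is named by its letters, and the GC box was taken as GGGCGG. The letters TATAAA were read as a TATA box. Part of the core of the CTCF motif, which CTCFL is known to share, was taken as AGGGGGC, letters settled on after the windows were seen. The Nid1 window held 1 CCAAT box, read on the opposite strand, and 1 GC box, with no TATA box and no CTCF-like core. Of 32807 windows of this length, 37.4% held a CCAAT box, 35.6% a GC box, 13.6% a TATA box and 10.6% the CTCF-like core. Windows were at hand for 7 of the 10 genes, and Nid2, Lama1 and Lamc1 had none. A match is a run of letters and not a shown binding site.

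**Figure D2:**
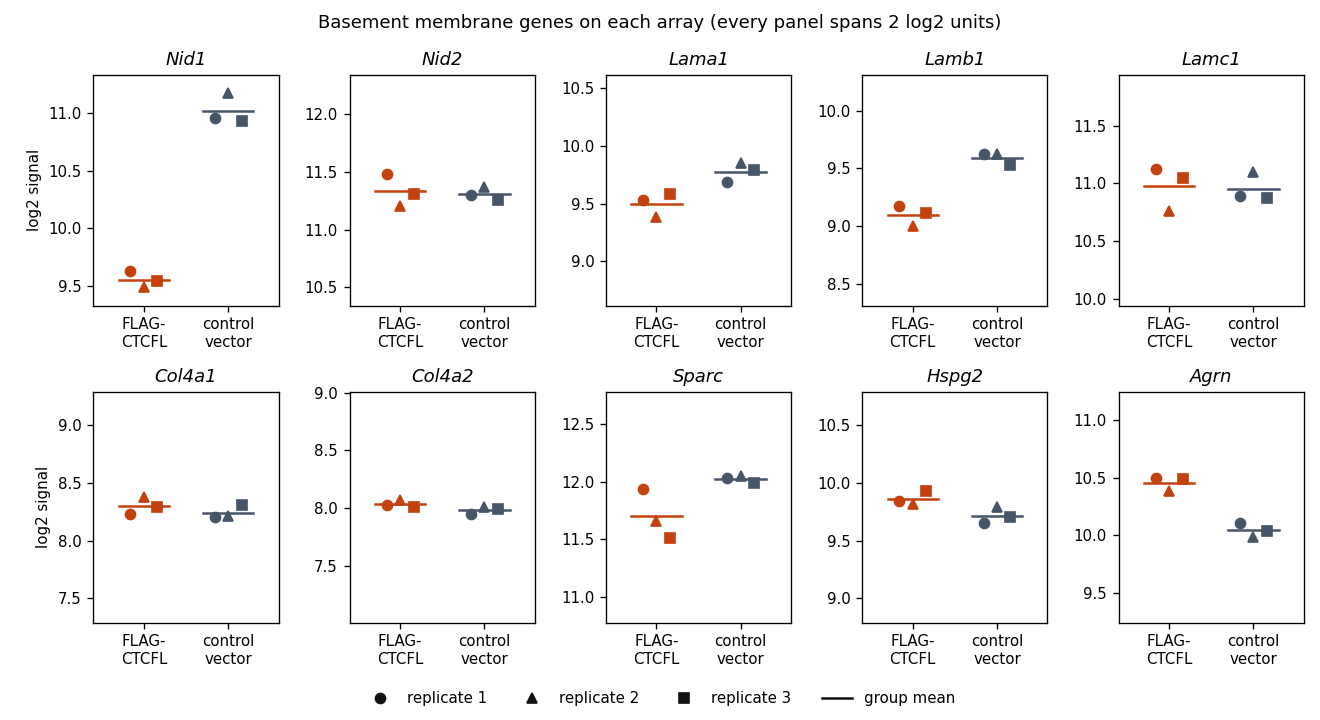
Log2 signal of the 10 basement membrane genes on each array, with FLAG-CTCFL cultures on the left and control vector cultures on the right of each panel, symbols for replicates 1 to 3 and a bar for the group mean. Every panel spans 2 log2 units, and the groups are apart for Nid1, Lama1, Lamb1, Sparc, Hspg2 and Agrn and overlap for Nid2, Lamc1, Col4a1 and Col4a2.

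A laminin of the early embryo is a cross-shaped trimer of the α1, β1 and γ1 chains, coded by Lama1, Lamb1 and Lamc1. The α1 chain carries the main contacts to cell surface receptors. Lama1 (chromosome 17) had 9.53, 9.38 and 9.58 in FLAG-CTCFL cells and 9.69, 9.85 and 9.79 in control vector cells, with no overlap. It fell by 0.28 ± 0.06 on the log2 scale (SE; limma adjusted p = 0.00213), and its lowest control array lay only a little above its highest FLAG-CTCFL array. Lamb1 (chromosome 12), for the β1 chain, had 9.17, 9.0 and 9.11 in FLAG-CTCFL cells and 9.62, 9.62 and 9.53 in control vector cells. It fell by 0.50 ± 0.05 (SE; limma adjusted p = 6.70e-06), or 1.41-fold. Lamc1 (chromosome 1), for the γ1 chain to which nidogen binds, had 11.12, 10.76 and 11.05 in FLAG-CTCFL cells and 10.89, 11.10 and 10.87 in control vector cells. The groups overlapped and the SDs of 0.19 and 0.13 were the widest of the trimer, with a log2 fold change of 0.03 ± 0.08 (SE; 95% interval -0.15 to 0.21, limma adjusted p = 0.860).

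The fold changes of the trimer partners were compared in the same way as those of the nidogens. Lamb1 stood below Lamc1 by -0.53 ± 0.09 on the log2 scale (SE; 95% interval -0.77 to -0.28), and Lama1 stood below Lamc1 by -0.31 ± 0.08 (95% interval -0.52 to -0.10). Lama1 stood above Lamb1 by 0.22 ± 0.07 (95% interval 0.03 to 0.40). For these pairs the per-array differences did not overlap between groups, but the exact permutation p was 0.1 each, the smallest that 3 arrays against 3 allow, and 0.125 after adjustment over the 5 pairs, so that no pair passed this test. The Lama1 to Lamb1 interval included 0 without control vector replicate 2 (0.24) and without FLAG-CTCFL replicate 1 (0.24), 2 (0.23) or 3 (0.18).

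Col4a1 and Col4a2 code for the α1 and α2 chains of the most widespread type IV collagen trimer. The genes lie head to head on chromosome 8 and are transcribed in opposite directions from a shared promoter region. Col4a1 had 8.23, 8.38 and 8.29 in FLAG-CTCFL cells and 8.20, 8.21 and 8.31 in control vector cells, and Col4a2 had 8.03, 8.07 and 8.01 against 7.95, 8.01 and 7.99 in control vector cells. For both genes the groups overlapped. Their signals were the lowest of the basement membrane genes. Group means in FLAG-CTCFL and control vector cells were 8.30 and 8.24 for Col4a1 and 8.04 and 7.98 for Col4a2. Array medians were 7.92 to 7.99, and Col4a2 lay below the 50th percentile of mean signal. With signals this low, the lack of a call does not show that either gene was unchanged. The log2 fold change was 0.06 ± 0.05 for Col4a1 (SE; 95% interval -0.05 to 0.17, limma adjusted p = 0.442). For Col4a2 it was 0.06 ± 0.04 (SE; 95% interval -0.04 to 0.15, limma adjusted p = 0.393). The fold changes of the pair differed by 0.0044 on the log2 scale (95% interval -0.13 to 0.13; exact permutation p = 0.9).

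The promoter windows of the pair are shown because they overlap by 78 bases on opposite strands, with annotated start sites 21 bases apart (RefSeq, GRCm38.p6, chr8:11312777-11313076 on the - strand for Col4a1 and chr8:11312555-11312854 on the + strand for Col4a2, 5′ to 3′, with CCAAT boxes, GC boxes and CTCF-like cores of either strand in capitals).
Col4a1: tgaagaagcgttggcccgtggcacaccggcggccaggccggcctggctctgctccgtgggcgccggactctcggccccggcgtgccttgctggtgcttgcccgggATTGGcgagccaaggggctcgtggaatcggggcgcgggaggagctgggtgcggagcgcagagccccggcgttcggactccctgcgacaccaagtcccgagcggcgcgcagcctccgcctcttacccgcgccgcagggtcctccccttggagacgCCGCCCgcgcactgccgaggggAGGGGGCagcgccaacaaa
Col4a2: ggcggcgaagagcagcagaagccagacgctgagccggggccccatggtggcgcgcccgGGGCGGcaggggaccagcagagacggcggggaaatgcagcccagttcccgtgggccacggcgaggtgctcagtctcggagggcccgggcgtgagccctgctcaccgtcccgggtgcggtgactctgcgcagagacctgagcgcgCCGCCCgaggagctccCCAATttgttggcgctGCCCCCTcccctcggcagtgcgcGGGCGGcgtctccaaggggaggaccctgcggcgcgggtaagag
The Col4a1 window held 1 CCAAT box and 1 GC box, and the Col4a2 window held 1 CCAAT box and 3 GC boxes. The GC box inside the last 50 bases is the same stretch of DNA in both windows, and so is the 1 CTCF-like core of each window. Their GC contents were 74.0% and 73.7%, against a median of 52.7% over all windows, and neither held a TATA box.

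Sparc (chromosome 11) codes for a secreted calcium-binding glycoprotein, also called osteonectin or BM-40, that binds collagens and is abundant in parietal endoderm. It had 11.94, 11.66 and 11.51 in FLAG-CTCFL cells, against 12.03, 12.05 and 11.99 in control vector cells. The control vector arrays were nearly level, and FLAG-CTCFL replicate 1 lay just below them. The SD was 0.22 in FLAG-CTCFL cells, the widest of the 10 genes, and 0.03 in control vector cells. Sparc fell by 0.32 ± 0.08 on the log2 scale (SE; limma adjusted p = 0.00960). The size of this fall rested on single FLAG-CTCFL arrays: the log2 fold change was -0.22 without replicate 3 (adjusted p = 0.0495), -0.44 without replicate 1 and -0.48 with limma's array weights, which favour replicate 3.

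Perlecan (Hspg2) and agrin (Agrn), both on chromosome 4, are large secreted proteins that carry heparan sulfate chains, tie laminin to dystroglycan and other receptors, and hold growth factors. Agrn had 10.50, 10.38 and 10.49 in FLAG-CTCFL cells, against 10.11, 9.99 and 10.04 in control vector cells. Every FLAG-CTCFL array was above every control vector array, and Agrn rose by 0.41 ± 0.05 on the log2 scale (SE; 1.33-fold; limma adjusted p = 2.88e-05). Hspg2 had 9.84, 9.82 and 9.93 in FLAG-CTCFL cells and 9.65, 9.79 and 9.70 in control vector cells, so that the nearest arrays of the groups almost touched. It rose by 0.15 ± 0.05 (SE; limma adjusted p = 0.0353). This call was lost without control vector replicate 1 (0.12, adjusted p = 0.158), control vector replicate 3 (0.14, adjusted p = 0.111) or FLAG-CTCFL replicate 3 (0.12, adjusted p = 0.163). With array medians subtracted the value was 0.12 and the adjusted p was 0.125.

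The window of the upstream Agrn start is shown because Agrn had the largest rise of the 10 genes (RefSeq, GRCm38.p6, chr4:156197439-156197738, - strand, 5′ to 3′, with the core and the GC boxes in capitals).
Agrn: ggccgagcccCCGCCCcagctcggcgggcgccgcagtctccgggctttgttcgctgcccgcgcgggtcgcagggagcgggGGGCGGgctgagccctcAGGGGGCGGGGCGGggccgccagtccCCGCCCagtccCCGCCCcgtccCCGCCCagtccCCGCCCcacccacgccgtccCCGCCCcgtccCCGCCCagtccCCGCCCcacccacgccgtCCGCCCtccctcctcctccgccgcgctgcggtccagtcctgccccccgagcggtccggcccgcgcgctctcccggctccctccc
The CTCF-like core lies at positions -153 to -147 from the start and overlaps a GC box. This window held 12 GC boxes, some of them overlapping or repeated at short spacing, and had a GC content of 83.3%. The window of the other annotated Agrn start held 2 GC boxes and no such core. The Hspg2 window held 5 GC boxes and 1 CTCF-like core, and the Lamb1 window 2 GC boxes, 1 CCAAT box and 1 CTCF-like core. In both windows the core overlaps a GC box. The Sparc window held none of the motifs searched. Whether any of these motifs had a part in a gene's change was not tested.

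**Figure D3:**
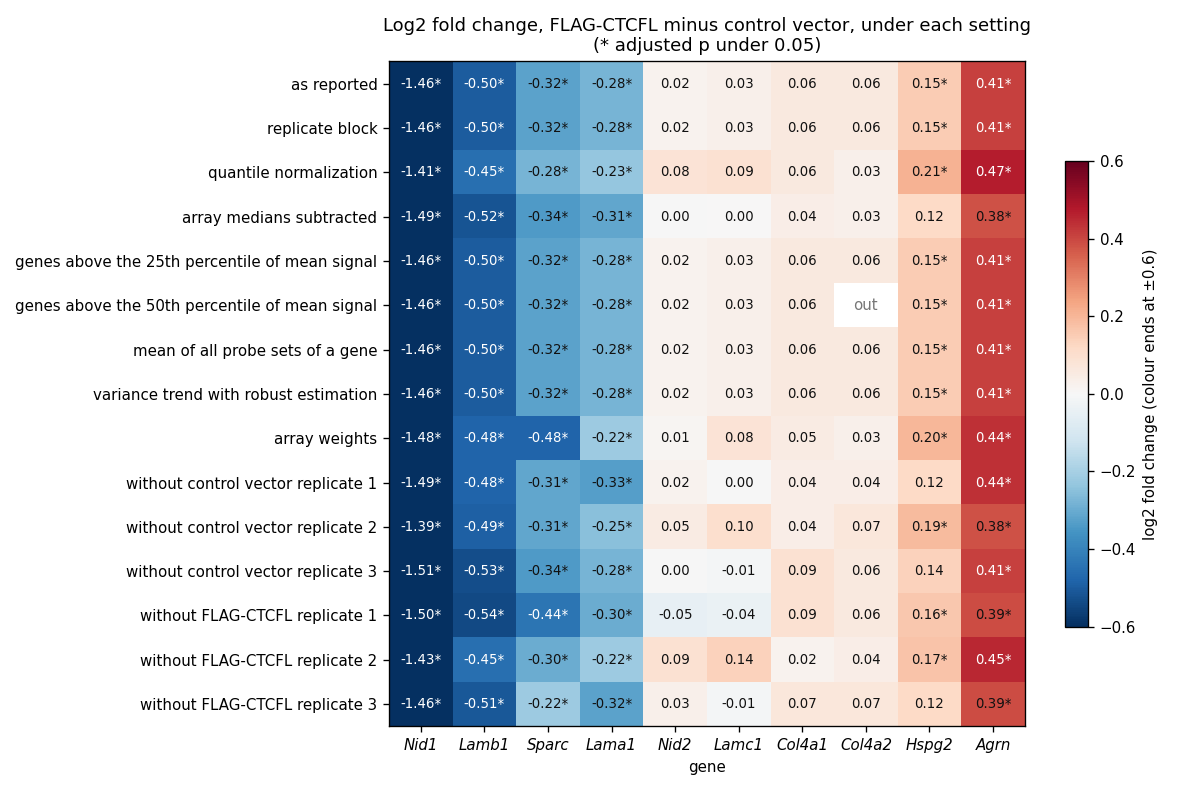
Log2 fold change (FLAG-CTCFL minus control vector) of each basement membrane gene (columns) under the reported fit and 14 others (lines), with an asterisk at an adjusted p under 0.05 and colours that end at 0.6 either way. Nid1, Lamb1, Sparc, Lama1 and Agrn carry an asterisk throughout, and Hspg2 loses it in 4 fits. Col4a2 is left out of the fit of genes above the 50th percentile of mean signal.

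Each gene was set beside its measured chromosomal neighbours, 10 on each side in RefSeq gene order, to see whether adjacent genes moved with it. The counts of called neighbours below stand beside 18.4% lower and 12.5% higher over all genes. Around Nid1, 5 of 20 neighbours were lower and 3 higher. Their median log2 fold change was -0.02 and they ranged from -0.31 to 0.58, so that none came near the -1.46 of Nid1. The genes next to Nid1 were Gpr137b at -0.22 (limma adjusted p = 0.00237) and Lyst at 0.01, which did not pass. Around Nid2, 7 of 20 neighbours fell and 3 rose, their median was -0.07, and there were falls down to -0.52 (Ube2e1), while Nid2 itself stood at 0.02. Around Lamb1, 6 of 20 neighbours were lower and 2 higher (lowest -0.47, median 0.0023), and around Lama1 6 were lower and 4 higher (lowest -0.55, median 0.01). Around Sparc, 7 of 20 fell and 0 rose (median -0.05), and larger falls than that of Sparc were seen for Gm2a (-1.08), Anxa6 (-0.83) and Tnip1 (-0.46) on one side. Around Hspg2, 6 of 20 fell and 1 rose (median -0.01). Agrn was the last measured gene of its chromosome in this order, and of its 10 neighbours 2 were higher and 0 lower, with a median of 0.06 and a highest value of 0.21 (Rnf223). Around Lamc1, 5 were higher and 4 lower, and around Col4a1 and Col4a2 1 was higher and 2 lower. Whether the neighbourhood had a part in any member's change was not tested.

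**Figure D4:**
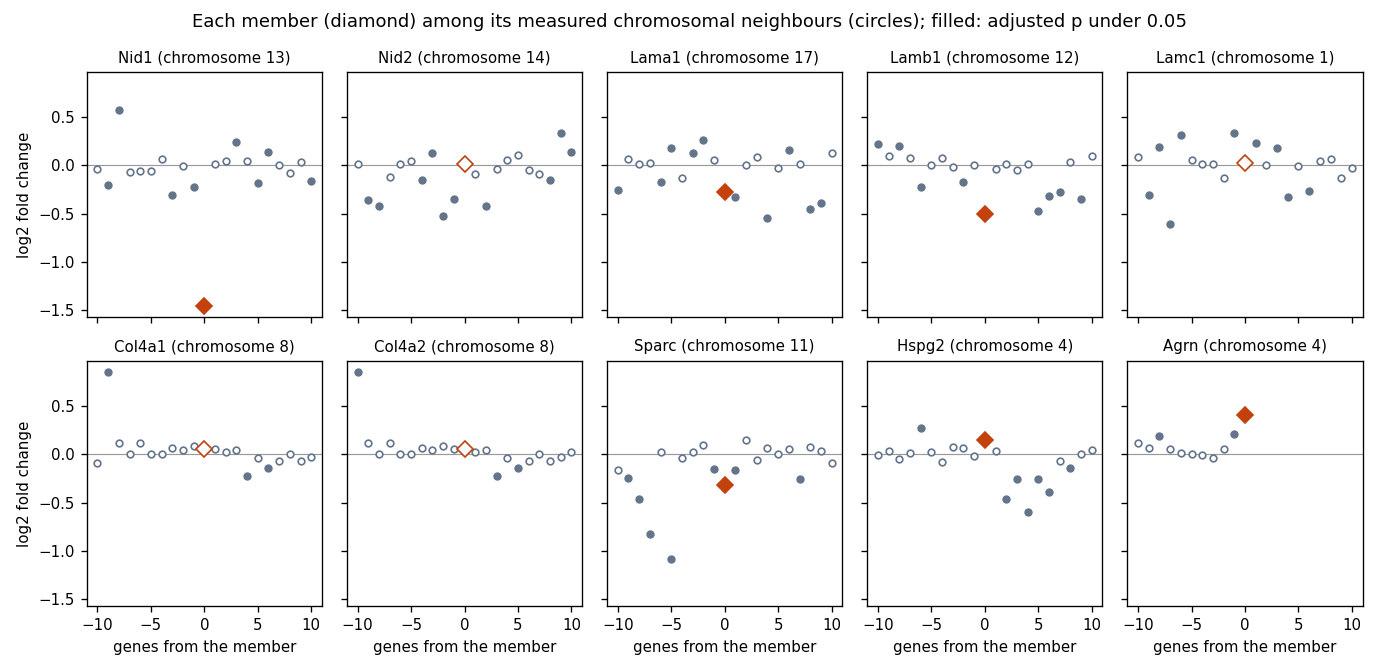
Log2 fold change (FLAG-CTCFL minus control vector) of each basement membrane gene (diamond) and of its measured chromosomal neighbours (circles), by place in gene order, filled at an adjusted p under 0.05. Nid1 at -1.46 lies below all of its neighbours, while Sparc at -0.32 lies above Gm2a, Anxa6 and Tnip1.

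Of 33 measured genes for other components of basement membranes 5 were higher (15.2%, against 12.5% of all genes) and 3 lower (9.09%, against 18.4% of all genes), and the median log2 fold change was 0.01. Smoc1, a relative of Sparc that modulates BMP signals, fell by 0.70 (adjusted p = 1.29e-07), and Fbln1, a fibulin that binds nidogen and laminin, fell by 0.64 (adjusted p = 3.05e-07). Ntn1, the laminin-related guidance protein netrin, rose by 0.96 (adjusted p = 1.29e-06) and Tinagl1, a matrix glycoprotein, rose by 0.48 (limma adjusted p = 2.39e-05). Of the further laminin chains, Lama5 (0.10, adjusted p = 0.0935) did not pass. The type IV collagen genes Col4a3, Col4a4, Col4a5 and Col4a6 did not pass either, at log2 fold changes of 0.05, 0.01, -0.04 and 0.01. Lama4 and Col4a6 were among 6 genes of this list with both group means below the 7.63 mark. With array weights 8 of the list were higher and 7 lower.

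Enzymes and carriers of collagen and laminin assembly moved both ways. Of 21 measured, 6 were higher (28.6%, against 12.5% of all genes) and 8 lower (38.1%, against 18.4% of all genes), and the median was -0.03. Of these 21 genes only Mia2 lay below the dim mark in both groups, and bright genes were called more often than all genes. The shares over all genes are thus a low yardstick for this list and for other lists of mostly bright genes. Plod1, a lysyl hydroxylase of collagen, fell by 0.43 (adjusted p = 8.43e-06) and Tmem38b, an endoplasmic reticulum cation channel, fell by 0.34 (adjusted p = 0.000353). P3h1, a prolyl 3-hydroxylase, rose by 0.29 (adjusted p = 0.000281), and Sec24d, a coat protein of the vesicles that export collagen, rose by 0.32 (limma adjusted p = 0.000341). The collagen chaperone gene Serpinh1 (-0.03) and the cargo receptor gene Mia3 (0.01) did not pass.

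In a list of receptors of basement membranes that also counts glypicans and syndecans, 8 of 21 genes fell (38.1%, against 18.4% of all genes) and 3 rose (14.3%, against 12.5%). The median was -0.05. Gpc3, a cell surface glypican on chromosome X, fell by 1.02 (adjusted p = 6.25e-08), and the syndecan genes Sdc2 and Sdc3 fell by 0.35 and 0.38 (limma adjusted p = 4.09e-05 and 0.000203). Itgb1, the β chain shared by the main laminin-binding integrins, fell by 0.35 (adjusted p = 0.000179). Dag1, the dystroglycan that binds laminin, perlecan and agrin, stood at -0.08 (limma adjusted p = 0.311) and did not pass. Without FLAG-CTCFL replicate 3, 1 gene of this list was higher in place of 3.

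Of 25 measured genes of matrix turnover 10 were lower (40.0%, against 18.4% of all genes) and 5 higher (20%, against 12.5% of all genes), and the median was 0.01. The tissue inhibitors of metalloproteinases Timp1, Timp3 and Timp2 fell by 1.12, 0.79 and 0.57 (limma adjusted p = 2.91e-07, 2.72e-07 and 6.27e-07), and Ctsb, a lysosomal cathepsin, fell by 0.98 (adjusted p = 5.18e-09). The gelatinase Mmp2, which cleaves type IV collagen and was named after its value was seen, fell by 0.55 (adjusted p = 3.85e-05). Among the 5 higher genes Sulf1 rose most, by 0.61, and Mmp9 rose by 0.19 (limma adjusted p = 1.18e-06 and 0.00356). The count of higher genes was 2 in place of 5 without control vector replicate 1, 2 or 3 or FLAG-CTCFL replicate 3, and after subtraction of array medians, and 3 among genes above the 50th percentile of mean signal.

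Perlecan and agrin carry heparan sulfate, and of 22 measured genes of its synthesis 7 were higher (31.8%, against 12.5% of all genes) and 5 lower (22.7%, against 18.4%), and the median was 0.03. Hs6st2, a 6-O-sulfotransferase on chromosome X, rose by 0.80 (limma adjusted p = 2.36e-08) from a control vector mean of 7.39, below the 7.63 mark. The size of that rise is therefore uncertain. Xylt1, which starts the chain on the core protein, rose by 0.40 (limma adjusted p = 1.70e-05). Extl3, an enzyme of chain initiation, and Ndst2, an N-deacetylase and sulfotransferase, both on chromosome 14, fell by 0.54 and 0.37 (limma adjusted p = 8.69e-07 and 1.58e-05).

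**Figure D5:**
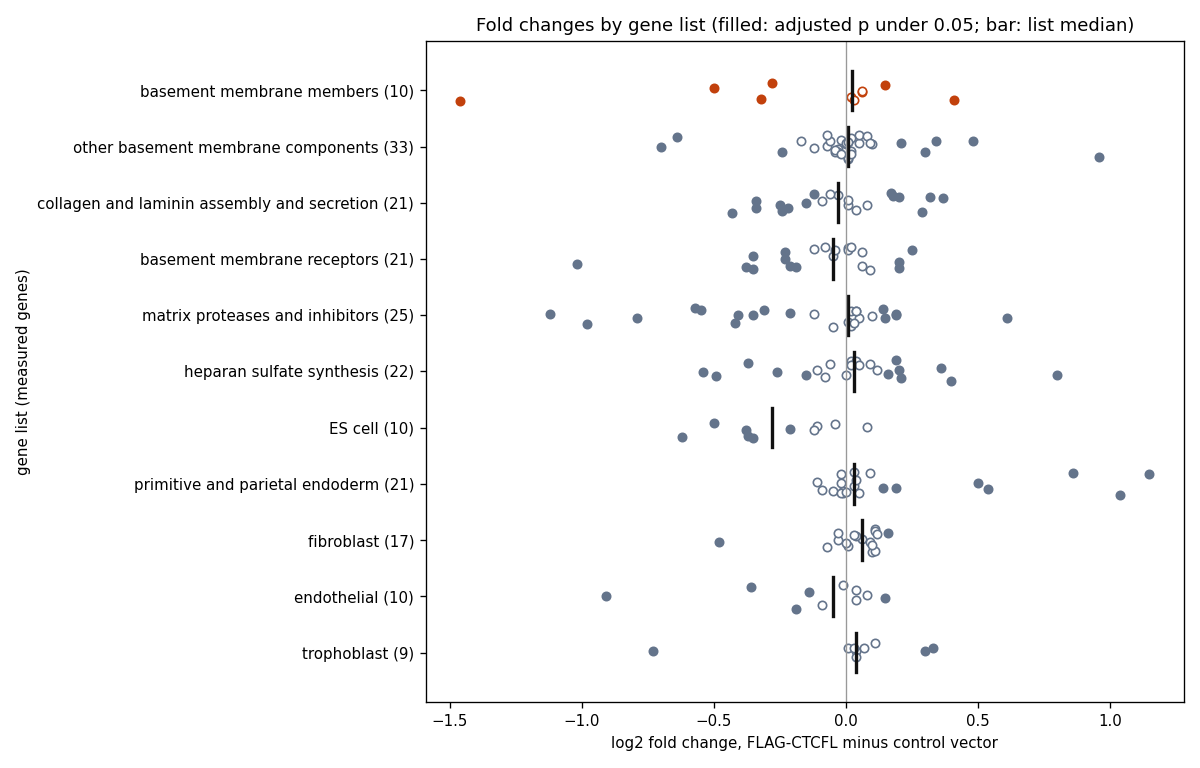
Log2 fold changes (FLAG-CTCFL minus control vector) of the genes of each list, one point per measured gene, filled at an adjusted p under 0.05, with a bar at the list median. List medians lie between -0.05 and 0.06 except for ES cell markers at -0.28, and Nid1 at -1.46 is the lowest point of the plot.

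Markers of the cells a culture could hold were read beside these results. In bulk cultures fewer cells of a type and less RNA per cell cannot be told apart. These counts stand beside 12.5% higher and 18.4% lower over all genes, and bright genes were called more often than that. Of 10 ES cell markers 6 were lower and 0 higher, and their summed linear signal was 48140 to 52039 in FLAG-CTCFL cells and 61674 to 62006 in control vector cells. Nanog, Esrrb, Dppa5a and Tdgf1 fell by 0.62, 0.50, 0.38 and 0.37 (limma adjusted p = 5.40e-07 to 1.69e-05), and all 10 markers lay above the dim mark. Of 21 measured markers of primitive and parietal endoderm 7 were higher and 0 lower, with a median of 0.03, and their summed signal was 8036 to 8599 in FLAG-CTCFL cells and 6192 to 6248 in control vector cells. The other 14 did not pass. Such a sum gives most weight to bright genes, and Krt8 and Krt18 were the brightest of the list in both groups. Krt8 and Krt18, simple epithelial keratins, rose by 1.15 and 1.04, Lrp2, an endocytic receptor, by 0.86 and Srgn, a granule proteoglycan, by 0.50 (limma adjusted p = 9.11e-08 to 1.40e-06). Pdgfra rose by 0.54 and Dab2 by 0.19 (limma adjusted p = 6.02e-06 and 0.00774). Of the transcription factors that define this lineage, Gata6 rose by 0.14 (limma adjusted p = 0.0407), the weakest call of the list. Gata4 (-0.05) and Sox7 (-0.09) did not pass, and Sox17 was below the dim mark in both groups. Sox17, Cubn, Afp, Ttr and Thbd were the 5 endoderm markers below that mark in both groups.

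Of 17 fibroblast markers 1 was higher (Col1a1, 0.16) and 1 lower (Thy1, -0.48), with summed signals of 9875 to 10810 in FLAG-CTCFL cells and 9837 to 10521 in control vector cells. Vim, with group means of 12.61 and 12.64, was far brighter than the other markers and weighs most in these sums. The call of Col1a1 (adjusted p = 0.0314) was lost without control vector replicate 1 or 2 or FLAG-CTCFL replicate 2 or 3. Without FLAG-CTCFL replicate 1, 3 fibroblast markers were higher, and with array weights 7 were. Postn, Lum, Dcn, Fap, Prrx1 and S100a4 were below the dim mark in both groups. Of 10 endothelial markers 4 were lower and 1 higher (summed signals 3877 to 3989 in FLAG-CTCFL cells and 4639 to 4700 in control vector cells), with Pecam1, which ES cells also express, at -0.91, and Tek at -0.36. The smaller changes of Vwf (-0.19) and Kdr (0.15) lost their calls without control vector replicate 1 or 3 and, for Vwf, FLAG-CTCFL replicate 3 or, for Kdr, FLAG-CTCFL replicate 1. Without control vector replicate 3 or FLAG-CTCFL replicate 3, 2 endothelial markers were lower in place of 4. Of 9 trophoblast markers 2 were higher (Gata3, 0.33, and Cdx2, 0.30) and 1 lower (Tfap2c, -0.73), with summed signals of 2200 to 2284 in FLAG-CTCFL cells and 2325 to 2378 in control vector cells. The control vector means of Kdr and Cdx2, 7.56 each, lay below the dim mark. The part of these markers in the changes of the basement membrane genes was not tested.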

How the data were processed

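Microarray signals of 6 cultures, 3 FLAG-CTCFL and 3 control vector, were taken from the deposited table of 34760 probe sets. The authors deposited log2 values: values of 5.73 to 14.56 show the log2 scale, and how the signals were background-corrected, summarised and scaled is not stated in the labels, the design text or the table. Per the labels, 200 ng of total RNA was labelled per array. Platform symbols, brought up to date with the RefSeq gene table of GRCm38.p6 by their Entrez IDs (21553 of 21640 single-symbol probe sets matched), named the genes, and the probe set with the highest mean was kept per gene, giving 19937 genes. The arrays' build is not stated, so gene coordinates are left out; promoter windows come from RefSeq.

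The test for each gene was that of limma 3.58.1 under R 4.3.3 (functions lmFit and eBayes, two-sided, Benjamini-Hochberg over all genes, threshold 0.05). Differences are FLAG-CTCFL values minus control vector values. Fold changes of partner genes were compared from per-array differences (pooled SD, Student's 95% interval, exact permutation test in SciPy 1.17.1). The fit was tested on simulated data. The number of arrays limits precision. Scan dates were not used, so no batch was tested.

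Members and lists were chosen with earlier results of these data known. Named were all 10 members, Ctcfl, and up to 4 changed genes with the smallest p from each list. The other named genes, among them Lama4, Lama5, Col4a3 to Col4a6, Serpinh1, Mia3, Dag1, Mmp2, Mmp9, Sulf1, Pdgfra, Dab2, Gata6, Gata4, Sox7, Vim, the neighbours and the genes below the dim mark, were picked with their values in view. The alternatives tried were a replicate block, array medians subtracted, quantile normalization, leaving out genes below the 25th or the 50th percentile, the mean of probe sets, a variance trend, array weights, an adjusted p of 0.1, each array left out, and 5 or 20 neighbours. Figures used Python 3.11.15 and matplotlib 3.10.9.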

Additional observations from a re-analysis of the deposited data

How the results depend on the processing

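Nid1, Lamb1, Sparc, Lama1 and Agrn kept their direction and their calls in every fit run, and no value with a call reversed. Nid1 ranged from -1.51 to -1.39 with 1 array left out. Nid2 (-0.05 to 0.09) and Lamc1 (-0.04 to 0.14) changed sign with 1 array left out, without a call. Hspg2 ranged from 0.12 to 0.19 with 1 array left out and was not called after subtraction of array medians (0.12), which left 1 member higher. With 1 array left out 1 to 2 members were higher. Replicate numbers did not pair the arrays (correlations of same-numbered deviations 0.13, -0.20 and -0.02). With the replicate block 5979 genes changed against 6161, the member calls were the same, and the intervals of Lama1 minus Lamc1 (-0.31) and Lamb1 minus Lamc1 (-0.53) included 0. The Lama1 to Lamb1 difference was 0.16 to 0.25 with 1 array left out. Of all changed genes 40.5% were higher as deposited, 48.6% after quantile normalization and 31.9% after subtraction of array medians. With array weights 4195 genes were higher in place of 2496. The cause of these shifts was not tested.

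Array weights gave 8 higher and 7 lower other components, 1 higher ES cell, 3 lower endoderm, 7 higher fibroblast and 4 higher trophoblast markers. Quantile normalization gave 1 higher ES cell and 1 lower endoderm marker. Subtraction of array medians gave 2 higher matrix turnover genes and 0 higher fibroblast and endothelial markers. Above the 50th percentile of mean signal, where fewer genes are tested, 3 other components, 3 matrix turnover genes, 2 fibroblast markers and 0 endothelial and trophoblast markers were higher. At an adjusted p of 0.1, 1 endoderm marker was lower and 4 fibroblast markers were higher. With 1 array left out, higher counts were 1 to 3 receptors, 2 to 4 matrix turnover genes, 0 to 1 ES cell, 0 to 3 fibroblast and 0 to 1 endothelial markers, and lower endothelial markers 2 to 4.

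Medians of neighbours stayed small, but some changed sign, as around Sparc (-0.05 as reported, 0.02 with 20 neighbours a side). Those listed moved by more than their pooled SD between arrays of a group in some setting. After subtraction of array medians they were -0.05 (Nid1), -0.10 (Nid2), -0.02 (Lamb1), -0.01 (Lamc1), -0.03 (Col4a1) and -0.01 (Col4a2), and after quantile normalization 0.04 (Lama1). With 5 neighbours a side they were -0.0017 (Nid1), 0.04 (Col4a1), 0.04 (Col4a2), -0.02 (Sparc), -0.05 (Hspg2) and 0.0016 (Agrn), and with 20 a side -0.03 (Nid2) and 0.02 (Sparc). With 1 array left out they were -0.04 to -0.01 (Nid1), -0.08 to -0.04 (Nid2), 0.0046 to 0.04 (Lama1), 0.0043 to 0.03 (Col4a1) and 0.01 to 0.05 (Col4a2).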
